A study of Homo sapiens with 2 samples.

Results

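Integrin subunits of epithelial cells, focal adhesion kinase (PTK2) and paxillin (PXN) were examined in control and FZR1 ko breast cancer cells treated with cisplatin. The 10 genes were chosen by their current NCBI symbols, 5 alpha subunits, 3 beta subunits, PTK2 and PXN, and were found by Entrez gene ID among the 23033 genes with a value. They were selected with the difference between these libraries in view, since PTK2 had been seen to be higher in FZR1 ko, so their values are a description and no test was made. The control library is labelled WT and the other FZR1 ko, both as the T-47D line, a luminal breast cancer line, and both with cisplatin at 2 µg/ml, with no untreated cells analysed here. FZR1 encodes an activator of the APC/C ubiquitin ligase, and the knockout line came from CRISPR/Cas9 and single cell screening, so it stands for 1 clone. There was 1 library per condition and hence no replicate check of any difference. The values are FPKM, which corrects fragments for the length of the transcript and the size of the library. Levels of different genes can therefore be compared, but the number of reads behind a value is unknown. A log2 ratio here compares FPKM + 1 of FZR1 ko with FPKM + 1 of control, a scale on which differences of low genes come out too small. Genes were kept where either library reached 1 FPKM, which left 13554 genes, all 10 members among them. The mRNA of the targeted gene, FZR1 (Entrez gene 51343), was at 12.3 FPKM in control against 10.1 in FZR1 ko, which does not check the labels, since small insertions or deletions can leave mRNA in place. Of 9 luminal markers, 5 were under 1 FPKM in both libraries, namely ESR1, PGR, GATA3, KRT19 and CDH1, so defining markers of the labelled line were close to absent. The other luminal markers were KRT8 with 829 and 998 FPKM in control and FZR1 ko, KRT18 with 552 and 740 FPKM, FOXA1 with 5.07 and 4.65 FPKM and EPCAM with 3.9 and 11.5 FPKM, and the mesenchymal marker VIM was at 315 and 295 FPKM.

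Integrins are receptors of 1 alpha and 1 beta subunit that bind the extracellular matrix outside the cell and the actin cytoskeleton inside it. The alpha subunit largely sets the ligand. ITGA5 pairs with ITGB1 as the classical fibronectin receptor, ITGA2 with ITGB1 as a collagen receptor, and ITGA3 with ITGB1 and ITGA6 with ITGB1 or ITGB4 as laminin receptors, while ITGAV forms receptors for vitronectin and related ligands with ITGB5 and other beta subunits. Talin and kindlin bind the beta tail, paxillin is recruited to the adhesion, and focal adhesion kinase binds paxillin and signals together with SRC to survival, migration and proliferation. ITGA6 with ITGB4 instead anchors keratin filaments in hemidesmosomes.

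The shared features of the family are visible in the coding sequence of the short tails inside the cell, which are shown because they tell the subunit types apart. The sequences are those of the canonical GENCODE 44 transcripts on hg38, read 5′ to 3′ along the transcript. In the alpha subunits the capitals mark the 15 bases that encode the GFFKR motif next to the membrane, which each of the 5 encodes exactly 1 time. In ITGB1 and ITGB5 the capitals mark the 12 bases of the first NPxY motif of the tail, a docking site for talin.
ITGA2: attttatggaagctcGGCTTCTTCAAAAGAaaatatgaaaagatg
ITGA3: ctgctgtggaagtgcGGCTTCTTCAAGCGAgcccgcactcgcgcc
ITGA5: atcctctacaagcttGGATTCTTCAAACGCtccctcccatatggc
ITGA6: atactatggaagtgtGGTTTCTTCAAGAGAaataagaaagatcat
ITGAV: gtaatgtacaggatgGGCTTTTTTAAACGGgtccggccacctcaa
ITGB1: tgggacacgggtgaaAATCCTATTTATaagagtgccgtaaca
ITGB5: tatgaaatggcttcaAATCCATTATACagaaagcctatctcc
The 15 bases encode the same residues in all 5 alpha subunits, although 11 or 12 of the 15 bases are those of ITGA5 in the other 4. The capitals lie at chr5:53090522-53090536 in exon 30 of 30 of ITGA2, chr17:50088228-50088242 in exon 25 of 26 of ITGA3, chr12:54396359-54396373 on the minus strand in exon 30 of 30 of ITGA5, chr2:172501775-172501789 in exon 25 of 26 of ITGA6 and chr2:186677200-186677214 in exon 30 of 30 of ITGAV. Those of the beta subunits lie on the minus strand, at chr10:32901618-32901629 in exon 16 of 16 of ITGB1 and at chr3:124763701-124763712 in exon 15 of 15 of ITGB5. ITGB4, whose coding sequence gives 1822 residues against 798 for ITGB1, encodes no NPxY motif.

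The levels of the 10 genes in FPKM spanned a wide range in each library. ITGB1, the common beta subunit, was the highest in both, with 121 FPKM in control against 101 in FZR1 ko. In control it was followed by ITGA5, PXN, ITGA3, ITGB5, ITGB4, ITGAV, ITGA6 and ITGA2, and PTK2 was the lowest. In FZR1 ko the order was ITGB1, PXN, ITGA5, ITGA3, ITGB4, ITGB5, PTK2, ITGAV, ITGA6 and ITGA2. PTK2 moved from the tenth place to the seventh, and ITGB1 and ITGA3 kept theirs. With 1 library each, it is not known which neighbours in this order differ beyond the spread of repeats.

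**Figure D1:**
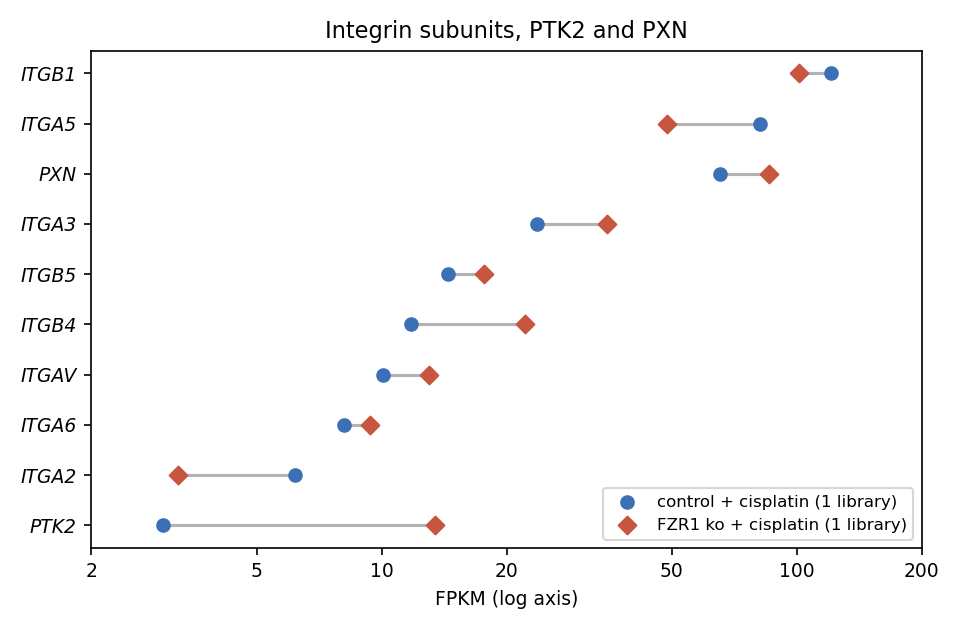
FPKM of each of the 10 genes on a log axis, with a circle for the control library and a diamond for the FZR1 ko library, ordered by the control level. PTK2 has the longest line, from 2.98 to 13.4 FPKM, and ITGA2, ITGA5 and ITGB1 are the genes whose diamond lies to the left of the circle.

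Of the 10 genes, 7 were higher and 3 were lower in FZR1 ko. PTK2 alone was at least 2-fold higher on the log2(FPKM + 1) scale, and none was at least 2-fold lower. That is 10% of the members, against 13.5% of all genes kept, of which 6.78% were at least 2-fold higher and 6.72% at least 2-fold lower. The 1 member past 2-fold is the gene that was seen to be higher when the members were chosen, so nothing is read from this share, and of the other 9 members 0 passed 2-fold. The median log2 ratio was 0.31 over the members and 0.23 over the 8 integrins, with -0.0048 over all genes kept. The summed FPKM of the 8 integrins was 277 in control and 250 in FZR1 ko, the 2 most abundant integrins, ITGB1 and ITGA5, being among the 3 that were lower. In bulk libraries such as these, fewer cells of a type and less RNA per cell cannot be told apart.

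**Figure D2:**
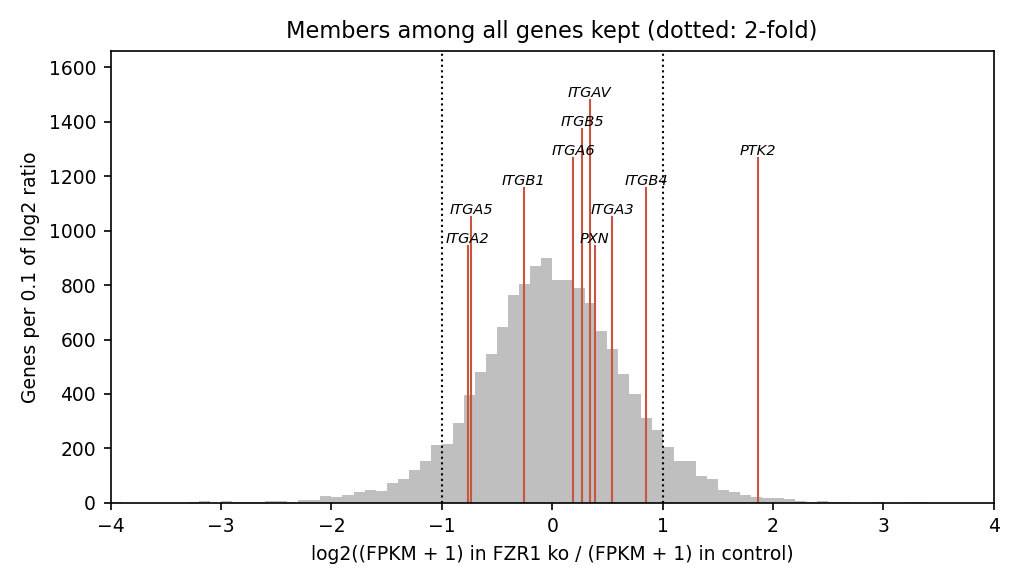
Number of genes per 0.1 of log2 ratio among all genes kept (grey bars, with values past the axis placed in the outermost bars) and the log2 ratio of each member (red lines). Only PTK2, at 1.86, lies outside the dotted lines of a 2-fold difference.

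Transcript length moved with the log2 ratio in these libraries, and the members are long transcripts. Protein-coding genes kept were divided into 10 groups by the length of the canonical transcript. The median log2 ratio was -0.05 in the group of the shortest transcripts and 0.31 in the group of the longest. It showed no steady rise over the first 4 groups, with -0.08 in groups 2 and 4, and rose from there on. The share at least 2-fold higher in FZR1 ko was 3.75% in the first group and 12.0% in the last. The share at least 2-fold lower was 9.59% and 3.05%. All 10 members were longer than the median of 3227 bases, from 3735 bases for ITGB1 to 7843 bases for ITGA2. With the median of its length group subtracted, an alternative added after the data were seen, the median over the members was 0.18 in place of 0.31, and 7 were still higher and 3 lower. The part of length in the differences was not tested beyond this.

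The alpha subunits went in both directions. ITGA5 (Entrez gene 3678), on chromosome 12 of hg38 from 54395261 to 54419266, had 81.5 FPKM in control against 48.6 in FZR1 ko, 1.68 times lower (log2 ratio -0.73). ITGA2 (3673), on chromosome 5 from 52989352 to 53094779, had 6.20 and 3.24 FPKM (-0.76). These 2 subunits, of the fibronectin and collagen receptors, were the only alpha members lower in FZR1 ko. The value of ITGA2 depended on the scale, since it was -0.44 with a pseudocount of 5 FPKM and -1.07 with the length trend removed. ITGA3 (3675), on chromosome 17 from 50056110 to 50090481, had 23.6 FPKM in control against 34.9 in FZR1 ko, 1.47 times higher (0.54). ITGAV (3685), on chromosome 2 from 186590056 to 186680901, had 10.1 and 13.0 FPKM (0.34). ITGA6 (3655), on chromosome 2 from 172427336 to 172506459, had 8.12 and 9.39 FPKM (0.19). The subunits of laminin receptors and ITGAV were thus the higher ones, by less than 1.5 times each. With the length trend removed, ITGAV came to 0.16 and ITGA6 to 0.01.

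Shares within a library need no scaling between the libraries. ITGA5 held 62.9% of the summed FPKM of the 5 alpha subunits in control and 44.6% in FZR1 ko. ITGA3 held 18.2% and 31.9%. The 2 genes were 3.45 to 1 in control and 1.40 to 1 in FZR1 ko. ITGAV held 7.78% and 11.9%, ITGA6 6.27% and 8.61%, and ITGA2 4.78% and 2.97%. The ratio of ITGB1 to the sum of the 5 alpha subunits was 0.936 in control and 0.929 in FZR1 ko. The shares and this ratio depend on which subunits are members. They leave out ITGA1, another alpha subunit, with 10.8 FPKM in control and 17.4 in FZR1 ko.

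**Figure D3:**
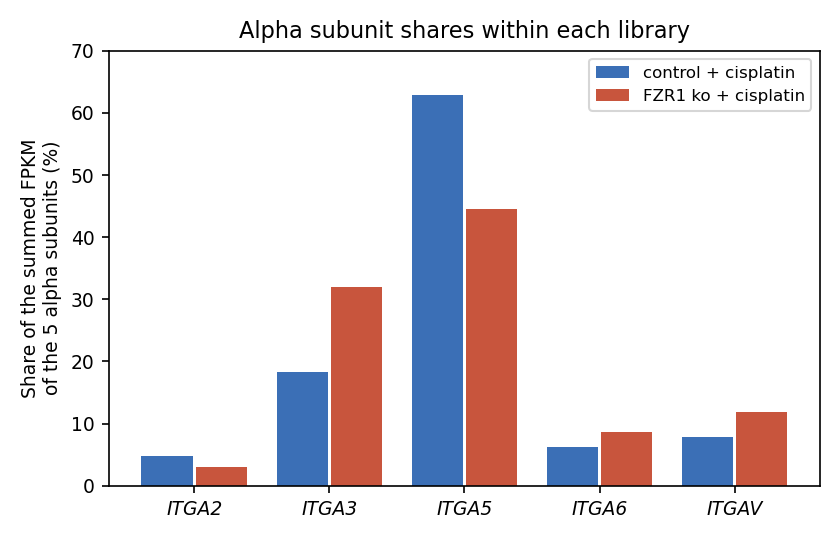
Share of each alpha subunit in the summed FPKM of the 5, in percent, for the control library (blue) and the FZR1 ko library (red), 1 library each. The bar of ITGA5 differs by -18.4 points in FZR1 ko and that of ITGA3 by 13.7 points.

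The promoters of the 2 alpha subunits that were lower are shown, because these genes were both lower in FZR1 ko. The sequences are from RefSeq on GRCh38.p14, the build of hg38, from 120 bases before to 30 bases after the annotated start, 5′ to 3′ along the gene. Capitals mark the AP-1 motif TGAGTCA or its reverse complement TGACTCA, and the GC box GGGCGG or its reverse complement CCGCCC.
ITGA5, chr12:54419237-54419386, minus strand: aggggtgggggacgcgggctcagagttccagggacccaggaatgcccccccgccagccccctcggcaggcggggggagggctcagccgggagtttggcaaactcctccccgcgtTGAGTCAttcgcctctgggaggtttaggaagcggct
ITGA2, chr5:52989232-52989381, plus strand: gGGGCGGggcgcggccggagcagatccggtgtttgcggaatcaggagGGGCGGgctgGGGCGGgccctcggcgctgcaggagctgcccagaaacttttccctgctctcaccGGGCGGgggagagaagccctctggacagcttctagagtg
Over the whole entry of 300 bases, ITGA5 held 1 AP-1 motif, which starts 6 bases before the annotated start, and 1 GC box outside the stretch shown, and ITGA2 held 4 GC boxes and no AP-1 motif. Of 35116 such entries in the genome, 4.95% held the AP-1 motif and 45.0% the GC box. The promoter entries used here covered 7 of the 10 members, with 13 start sites, and the promoters of PTK2, ITGA3 and ITGB4 were not analysed here. Among these the AP-1 motif was found in ITGA5 only, and 9 of the 13 entries, from 6 of the 7 genes, held a GC box. A match is a match of letters and does not show binding.

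Among the beta subunits, ITGB4 had the largest log2 ratio, while ITGB1 differed more in FPKM. ITGB4 (Entrez gene 3691), the partner of ITGA6 in hemidesmosomes, lies on chromosome 17 from 75721459 to 75757818 and had 11.8 FPKM in control against 22.1 in FZR1 ko, 1.87 times higher (log2 ratio 0.85, or 0.67 with the length trend removed). ITGB5 (3693), on chromosome 3 from 124761948 to 124901418, had 14.4 and 17.7 FPKM (0.27). ITGB1 (3688), on chromosome 10 from 32900318 to 32958230, was 1.20 times lower in FZR1 ko (-0.26). The level of ITGB4 was 0.0972 of that of ITGB1 in control and 0.218 in FZR1 ko. Its ratio to ITGA6 was 1.45 and 2.35, whereas the ratio of ITGB5 to ITGAV stayed closer, at 1.43 and 1.36.

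PTK2 (Entrez gene 5747), the gene of focal adhesion kinase, had the largest log2 ratio of the members and was chosen for being higher. In FPKM, the differences of ITGA5, PXN, ITGB1 and ITGA3 were larger. It had 2.98 FPKM in control against 13.4 in FZR1 ko, 4.51 times higher (log2 ratio 1.86). In control it was at the percentile 24.6 of the genes kept and in FZR1 ko at the percentile 58.7. The log2 ratio was 2.14 with a pseudocount of 0.1 FPKM, 1.21 with one of 5 FPKM and 1.73 with the length trend removed. For scale, 86 of the 13554 genes kept (0.634%), PTK2 included, had a log2 ratio at least as high. The genes nearest to it in level, picked by distance over log2(FPKM + 1) in the 2 libraries, were NEK6 with 3.17 and 12.6 FPKM, MAP2K6 with 3.15 and 14.6 FPKM, and VAV2 with 2.71 and 14.3 FPKM. Since both levels were used to pick them, that they were also higher in FZR1 ko follows from the choice.

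PTK2 spans 344.2 kb of chromosome 8, and the nearest protein-coding genes kept were examined on each side of it. On the side of lower coordinates, CHRAC1 had 43.1 FPKM in control against 46.1 in FZR1 ko (log2 ratio 0.09), and AGO2, of RNA silencing, had 11.8 and 12.8 FPKM (0.11). On the other side, DENND3 had 5.80 and 13.4 FPKM (1.08) and SLC45A4 had 4.22 and 8.72 FPKM (0.90). Both genes on that side were thus higher in FZR1 ko and those on the first side were close to equal. For scale, 6.78% of all genes kept were at least 2-fold higher, as DENND3 was. Whether the region plays a part was not tested.

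PXN (Entrez gene 5829), the adaptor that docks focal adhesion kinase, lies on chromosome 12 from 120210447 to 120265730. It had 65.4 FPKM in control against 85.7 in FZR1 ko, 1.31 times higher (log2 ratio 0.39). PXN was 22 times the level of PTK2 in control and 6.37 times in FZR1 ko. Its paralogs went the other way, as LPXN (leupaxin) had 7.26 FPKM in control against 2.10 in FZR1 ko (-1.41), and TGFB1I1 (Hic-5) had 30.5 and 13.1 FPKM (-1.16). PTK2B, the paralog of PTK2, had 0.34 and 0.36 FPKM and did not pass the filter.

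Lists of other genes of the pathway were compared with the members by their counts and medians. The lists were written with earlier results of these data known, so their shares past 2-fold are a description. Of the 18 other integrin subunits, 5 passed the filter, 4 were higher and 1 lower, and the median log2 ratio was 0.34. This median was 0.18 with a pseudocount of 5 FPKM and 0 with no filter on low values. ITGA1, another collagen receptor subunit, had 10.8 FPKM in control against 17.4 in FZR1 ko (0.64), opposite to ITGA2. ITGB8 had 2.89 and 0.99 FPKM, 2.92 times lower in FZR1 ko (-0.97, or -1.27 with the length trend removed). ITGAE had 2.76 and 3.77 FPKM (0.34), and ITGB2 2.05 and 2.78 FPKM (0.31). ITGAD, at 0.35 and 2.13 FPKM, was the only one past 2-fold on the log2(FPKM + 1) scale. That is 20% of those kept, against 13.5% of all genes kept. ITGAD passed the filter through FZR1 ko only, where it is higher. With at least 1 FPKM required in both libraries, which also leaves out ITGB8, 0 genes of this list were past 2-fold. The remaining 13 subunits were under 1 FPKM in both libraries.

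Of 22 matrix ligands, 17 passed the filter, of which 8 were at least 2-fold higher and 2 at least 2-fold lower, with a median of 0.87. That is 58.8% of those kept, LAMA3 and LAMA4 included, against 13.5% of all genes kept. In comparison, 12.0% of the group of the longest transcripts were at least 2-fold higher and 3.05% at least 2-fold lower. Nothing is read from this share, since the list was written with earlier results of these data known. With at least 1 FPKM required in both libraries, 8 genes of the list passed 2-fold, as did 1263 of all genes. The 8 genes at least 2-fold higher were 5 laminin chains, 2 collagen IV chains and HSPG2. LAMA5 had 19.8 FPKM in control against 51.1 in FZR1 ko (log2 ratio 1.33), LAMB1 16.6 and 39.0 FPKM (1.19), and LAMC1 12.4 and 28.7 FPKM (1.15), which together form a laminin trimer. COL4A1 had 5.88 and 14.5 FPKM (1.17) and COL4A2 14.2 and 36.6 FPKM (1.30). HSPG2, the heparan sulfate proteoglycan perlecan, had 4.64 and 14.2 FPKM (1.43). LAMA3, with 0.56 and 2.28 FPKM (1.07), and LAMA4, with 0.92 and 3.18 FPKM (1.12), passed the filter through FZR1 ko only, where they are higher. LAMB3, a chain of the laminin of hemidesmosomes, was the highest ligand in control and was lower in FZR1 ko, with 69.5 and 54.5 FPKM (-0.35). THBS1 (thrombospondin) had 14.9 and 6.42 FPKM (-1.09) and CCN2 21.9 and 9.86 FPKM (-1.08), while CCN1 was almost equal, at 61.5 and 58.0 FPKM (-0.08). The list has a median transcript length of 6540 bases, and with the length trend removed 4 genes were at least 2-fold higher and 1 at least 2-fold lower, with a median of 0.77. With a pseudocount of 5 FPKM, 3 of the 10 genes past 2-fold remained by count, and the median was 0.47. With no filter on low values, the median over the 22 ligands was 0.33.

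Of 28 proteins that bind integrin tails or link them to actin, 25 passed the filter and 18 were higher, with a median of 0.48. Of these, 3 were at least 2-fold higher, among them TNS3 (tensin 3), with 1.49 FPKM in control against 12.0 in FZR1 ko (log2 ratio 2.38), and ACTN4 (alpha-actinin 4), with 62.4 and 126 FPKM (1.0). The genes at least 2-fold lower were DAB2, an endocytic adaptor that binds integrin tails, with 22 and 4.25 FPKM (-2.13), and the paxillin paralogs LPXN and TGFB1I1. The 6 genes past 2-fold are 24.0% of those kept, against 13.5% of all genes kept. Among the most abundant genes, FLNA (filamin A) had 162 and 220 FPKM (0.44), ZYX (zyxin) 184 and 133 FPKM (-0.46), and ILK (integrin-linked kinase) 131 and 86.9 FPKM (-0.58). With the length trend removed, TNS3 alone stayed at least 2-fold higher (2.08), and DAB2, LPXN and TGFB1I1 stayed at least 2-fold lower. The median of the list was then 0.42.

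Of 32 partners of focal adhesion kinase in signalling, 26 passed the filter and 20 were higher. The median was 0.29, or 0.19 with the length trend removed. Past 2-fold were ASAP1, an ARF GTPase-activating protein, with 2.36 FPKM in control against 6.89 in FZR1 ko (log2 ratio 1.23), ARHGAP35 (p190RhoGAP) with 2.30 and 6.62 FPKM (1.21), and the adaptor GRB7 with 8.78 and 3.79 FPKM (-1.03). These 3 genes are 11.5% of those kept, near the background of 13.5%. With the length trend removed ASAP1 alone stayed past 2-fold, and with a pseudocount of 5 FPKM none of the 3 did. The 4 most abundant partners were all within 2-fold. RAC1 had 162 and 168 FPKM (0.05), BCAR1 (p130Cas) 80.0 and 67.5 FPKM (-0.24), GRB2 31.0 and 42.8 FPKM (0.45), and CSK 33.2 and 36.1 FPKM (0.12). Of 4 hemidesmosome partners of ITGB4, 3 passed the filter and none passed 2-fold. Their median was 0.46, or 0.21 with the length trend removed. PLEC (plectin) had 66.1 and 91.4 FPKM (0.46), DST 6.79 and 10.9 FPKM (0.61), CD151 154 and 168 FPKM (0.13), and COL17A1 0.20 and 0.04 FPKM.

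**Figure D4:**
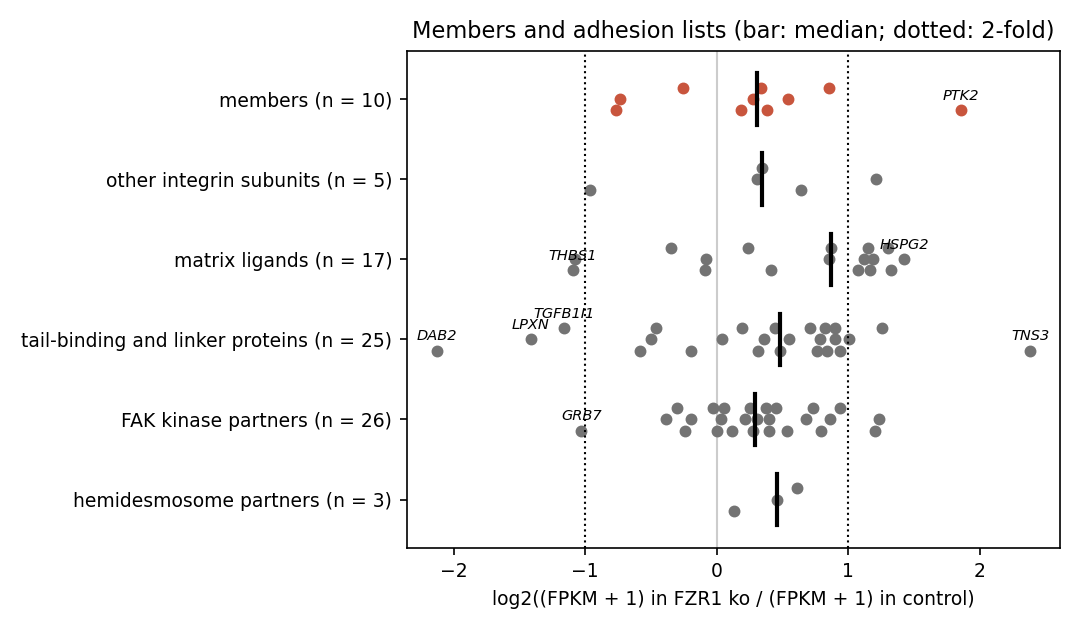
Log2 ratio of each member (red) and of each gene kept in 5 lists of the pathway (grey), with the median of each list as a black bar and dotted lines at a 2-fold difference. The matrix ligands have the highest median, 0.87, with 8 genes right of the 2-fold line, and DAB2 and TNS3 are the outermost genes.

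Markers of other cell types were read in the same libraries, since fibroblasts and endothelial cells also make laminin and collagen IV. Of 6 fibroblast markers 4 were kept. The summed level of all 6 was 20.3 FPKM in control against 27.8 in FZR1 ko, and COL1A2 was listed at 0 in both. Of 3 endothelial markers 1 was kept, CDH5, with 3.64 FPKM in control against 0.33 in FZR1 ko (log2 ratio -1.80). CDH5 passed the filter through control only, where it is higher. The sums over all 3 were 3.94 and 0.70 FPKM. Of 4 immune markers 2 were kept. The sums over all 4 were 47.3 and 64.2 FPKM, nearly all of it CD68, and CD3E was listed at 0 in both. Of 6 mesenchymal and basal markers 3 were kept, and the sums over all 6 were 421 and 366 FPKM. Those kept were KRT17 with 103 and 55.8 FPKM (log2 ratio -0.87), VIM with 315 and 295 FPKM (-0.09) and CDH2 (N-cadherin) with 2.97 and 15.3 FPKM (2.04). The part of cell makeup in the differences was not tested.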

How the data were processed

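The data are 2 RNAseq libraries of cisplatin-treated cells, control and FZR1 ko. The authors sequenced total RNA on the BGISEQ-500 platform, aligned the reads to the transcriptome and quantified them with RSEM on hg38. Their processing notes name Trimmomatic 0.36, HISAT2 2.1.0 and Bowtie2 2.2.5, and the paper names another Bowtie2 version. The version of the annotation and the filters are not given in the sources used here. The authors deposited FPKM per Entrez gene ID, rounded to 2 decimals. Of 24663 rows, 1630 had no value and 23033 were used, of which 22925 matched a symbol in the RefSeq table of GRCh38.p14. FPKM holds no read counts, so depth is unknown. The sum of FPKM was 502589 for control and 500488 for FZR1 ko.

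The log2 ratio used a pseudocount of 1 FPKM and genes that reached 1 FPKM in either library. Genes at or past a log2 ratio of 1 or -1 were counted. The computation was tested on simulated data. There being no replicates, nothing was tested between conditions. Members, gene lists and markers were written from general knowledge, but with earlier results of these data known. In each list the genes past 2-fold and the 4 with the highest mean FPKM were named, together with the 2 nearest genes kept on each side of PTK2 and the 3 genes nearest to it in level. PTK2B was named after its values were seen. The values of 1 gene within this rule are not reported here. Alternatives were pseudocounts of 0.1 and 5 FPKM, other filters, centring, rescaling to the same sum, a 4-fold threshold and protein-coding genes only. Lengths are those of the canonical transcripts of GENCODE 44. Computation was done with pandas 2.3.3 and numpy 2.4.6 in Python 3.11.15, sequences were read with Biopython 1.88, and plots were drawn with matplotlib 3.10.9.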

Additional observations from a re-analysis of the deposited data

How the results depend on the processing

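No paired analysis was possible because there was a single library of control and of FZR1 ko and no test was made, and for the same reason no replicate was left out. The 10 members kept their sign with the transcript length trend removed. The other alternatives could hardly have turned a sign, since pseudocounts cannot, filters left the members' values as they were, and centring and rescaling shift all genes nearly alike. On the log2(FPKM + 1) scale, the number of members past 2-fold was 1, against 0 at a 4-fold threshold. PTK2 was 4.51 times higher in FPKM itself, and its log2 ratio was 2.14 with a pseudocount of 0.1 FPKM. With the transcript length trend removed, 2 members passed 2-fold (1 higher, PTK2, and 1 lower, ITGA2). The median over the members, 0.31, was 0.33 with a pseudocount of 0.1 FPKM, 0.24 with 5 FPKM and 0.18 with the length trend removed.

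With a pseudocount of 0.1 FPKM, 2818 genes passed 2-fold (1460 higher), and 2 of the other integrin subunits. With 5 FPKM, 453 genes passed (183 higher, 270 lower), with 0 other integrin subunits, 3 matrix ligands, 3 linker proteins and 0 kinase partners. At 4-fold on the log2(FPKM + 1) scale, 150 genes passed (61 higher, 89 lower). Among these were 0 other integrin subunits, 0 matrix ligands, 2 linker proteins and 0 kinase partners. With at least 1 FPKM in both libraries, 0 other integrin subunits passed. With the length trend removed, which covers the 11454 protein-coding genes with a length, 600 genes were at least 2-fold higher and 705 lower, against 738 higher and 657 lower among protein-coding genes without this step, and 2 other integrin subunits, 5 matrix ligands and 1 kinase partner passed. Larger pseudocounts and thresholds pass fewer genes by their construction.

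With FPKM + 1 in place of FPKM, the alpha subunit shares in control were 61.3% for ITGA5, 18.3% for ITGA3, 8.23% for ITGAV, 6.78% for ITGA6 and 5.35% for ITGA2, and those in FZR1 ko were 43.5%, 31.4%, 12.3%, 9.11% and 3.72% in the same order. The unknown depth limits the low genes most, PTK2 in control and ITGA2 among the members.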
